A study of Mus musculus with 6 samples.

Results

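Red blood cells carry a small set of microRNAs (miRNAs) at high level, and 4 of them were followed here in cells of the developing mouse kidney: mmu-miR-144-3p, mmu-miR-144-5p, mmu-miR-451a and mmu-miR-486a-5p. The members were chosen by name, and all 4 were present among the 1034 mature miRNAs of the authors' deposited table. The samples were nephron progenitor cells, cortical kidney cells from which nephrons form, isolated from CD1 mice with no stated allele or treatment. There were 3 samples of the embryonic stage E14.5 and 3 taken on the day of birth (P0), each a pool of the kidneys of 1 litter. Per the labels' protocols, progenitors were bound to beads through the integrin Itga8 after a brief digestion of the outer kidney. No separate step to lyse or remove red blood cells is described in those protocols, and how much blood the samples held was not tested. The miRNA table holds no messenger RNA markers of nephron progenitors, so the cell type label was not checked. The spread reported is that between litter pools.

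miR-144 and miR-451a are made from 1 primary transcript under the control of the erythroid factor GATA1, and both accumulate as red cells mature. miR-451a is an exception among miRNAs because its short precursor bypasses Dicer and is cut by Ago2, whereas the arms of miR-144 are released by Dicer in the usual way. miR-486 comes from a different gene, inside Ank1, which encodes the red cell membrane protein ankyrin, and is abundant in red cells and in striated muscle. These miRNAs are therefore often used as a sign of blood in small RNA libraries of other tissues.

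The mature sequences show why the 3 products of the first locus can be told apart in reads. They are given 5′ to 3′ from RefSeq (GRCm38.p6), with the seed, bases 2 to 8, in capitals. Sequences were matched for 3 of the 4 members in the RefSeq table used here, and their positions equalled those of the deposited table.
miR-144-5p: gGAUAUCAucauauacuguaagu
miR-144-3p: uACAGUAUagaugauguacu
miR-451a: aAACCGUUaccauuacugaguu

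The 3 seeds differ from each other, and none of them was found in any other of the 1679 mature miRNA names with a RefSeq sequence. Over bases 2 to 7 only, miR-144-3p matched 1 other miRNA, miR-101a-3p. The hairpins are shown because miR-451a sits differently in its precursor, with the mature stretches in capitals.
Mir144 hairpin: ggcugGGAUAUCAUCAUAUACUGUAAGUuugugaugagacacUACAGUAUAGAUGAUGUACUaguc
Mir451a hairpin: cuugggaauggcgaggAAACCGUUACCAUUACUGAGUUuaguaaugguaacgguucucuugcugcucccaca

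In the Mir144 hairpin of 66 bases, miR-144-5p takes bases 6 to 28 and miR-144-3p bases 43 to 62, on either side of a predicted terminal loop at bases 31 to 36. In the Mir451a hairpin of 72 bases, miR-451a takes bases 17 to 38, which include all 4 bases of the predicted loop at 35 to 38. The loops were predicted from the sequence with RNAfold. No partner arm of miR-451a was analysed here, so its level is 1 value per library.

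Both hairpins lie on the plus strand of chromosome 11. Mir144 spans 78073005 to 78073070 and Mir451a spans 78073170 to 78073241, with 99 bases between them. Each mature sequence lies in the exon of its own miRNA gene in GENCODE M21, and no protein-coding gene overlaps them. The nearest protein-coding genes are Flot2, which ends 12570 bases before Mir144, and Eral1, which ends 134 bases after Mir451a on the other strand. A further miRNA gene, Mir451b, lies on the minus strand at the position of Mir451a, and miR-451b was not analysed here. miR-486a-5p lies on chromosome 8, 23142587 to 23142608, plus strand, in the exon of Mir486. That exon is within an intron of Ank1 and opposite the minus-strand gene Mir3107, which yields miR-486b.

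The 6 libraries held between 2649506 and 34934526 reads, recovered from the deposited TPM values. TPM is the number of reads per base of a feature scaled to the same total in every library. P0 replicate 1 lay within the E14.5 range for miR-144-5p and miR-486a-5p in TPM, and without it 420 miRNAs in place of 229 passed the test described next, so the value without it is given wherever its omission changed a member's call. TPM were tested with limma on log2(TPM + 1), across the 670 miRNAs averaging 1 TPM or more, and called below an adjusted p of 0.05 (Benjamini-Hochberg). All 4 members passed that filter. The median tested miRNA changed by −1.20 at P0 on the log2 scale in TPM and by −0.17 after median-of-ratios scaling, in which libraries are divided by a size factor from the typical miRNA. Both scales are given for each member because of this shift. In bulk samples such as these, fewer red cells and less of a miRNA per cell cannot be told apart.

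miR-451a was the member that fell. Its level was 276, 144 and 236 TPM in the E14.5 libraries, in the order of replicates 1 to 3, against 46.0, 24.8 and 27.4 TPM in those of P0. Every P0 library was below every E14.5 library, the closest being 46.0 against 144 TPM. These values rested on 552 to 3385 reads of miR-451a per library. The stage means were 218 ± 67.7 TPM at E14.5 and 32.7 ± 11.6 TPM at P0 (n = 3 each, SD). On the log2(TPM + 1) scale the change was −2.70 (SE 0.57, limma adjusted p = 0.00605). Among all tested miRNAs 34.2% were called in either direction, 32.8% were called lower at P0 and 49.6% had stages that did not overlap in TPM, so 1 member of 4 called lower is not above the background. Of the tested miRNAs, 13.4% had a more negative change than miR-451a.

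After size-factor scaling miR-451a had 2362, 1271 and 1774 normalised reads at E14.5 and 677, 621 and 628 at P0. The 3 P0 libraries lay close together and below all E14.5 libraries. The stages did not overlap in 35.4% of the tested miRNAs on this scale. The change after median-of-ratios scaling was −1.43 (SE 0.46), with a limma adjusted p of 0.0692 that missed the threshold, against 10.9% of tested miRNAs called in either direction. Without P0 replicate 1 it was −1.46 (limma adjusted p = 0.0121). The share of all tested miRNAs called on this scale without that library is not given here. The direction of miR-451a was the same on both scales, while the call was made in TPM only. In the authors' deposited table its log2 fold change was −1.27 with a standard error of 0.62 and an adjusted p of 0.142.

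miR-144-3p, the arm that is usually the active strand of miR-144, did not pass the test on either scale. It had 65.7, 15.0 and 62.5 TPM in the 3 E14.5 libraries, against 19.2, 25.5 and 12.6 TPM in those of P0. E14.5 replicate 2 stood low among its stage, inside the P0 range, so the stages overlapped. That low value rested on 320 reads and the lowest read number of miR-144-3p in any library was 157. The means were 47.7 ± 28.4 TPM at E14.5 and 19.1 ± 6.46 TPM at P0 (n = 3 each, SD). The log2 fold change was −1.07 in TPM (SE 0.68, limma adjusted p = 0.217), close to that of the median miRNA. Without E14.5 replicate 2 it was −1.75 (limma adjusted p = 0.0725), and leaving out each of the other libraries gave values up to −0.72. With all libraries it became 0.17 after median-of-ratios scaling (SE 0.66, limma adjusted p = 0.881), so the sign of miR-144-3p depended on the scaling. Its normalised reads were 509, 120.2 and 426 at E14.5 and 256, 577 and 262 at P0. In the authors' deposited table the log2 fold change was 0.77 with an adjusted p of 0.505.

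miR-144-5p, the opposite arm of the same hairpin, differed widely between the P0 libraries. It had 42.3, 21.3 and 17.4 TPM in the 3 E14.5 libraries, against 24.4, 0.473 and 3.29 TPM in those of P0. P0 replicate 1 lay within the E14.5 range, whereas P0 replicates 2 and 3 lay below it. P0 replicate 2 held 11 reads of miR-144-5p among 22263624, the lowest level of any library. The exact Poisson interval of that count was 0.236 to 0.846 TPM at 95%, which covers counting error only and not the spread between litter pools. P0 replicate 3 held 74 reads and P0 replicate 1 held 889. The means were 27.0 ± 13.4 TPM at E14.5 and 9.39 ± 13.1 TPM at P0 (n = 3 each, SD). The log2 fold change was −2.26 in TPM (SE 0.89, limma adjusted p = 0.0638) and −1.24 after median-of-ratios scaling (SE 0.90, limma adjusted p = 0.348). Without P0 replicate 1 it was −3.37 in TPM (limma adjusted p = 0.000753) and, with median-of-ratios factors, −2.24 (limma adjusted p = 0.0264), both past the threshold. That omission also raised the count of all miRNAs called in TPM from 229 to 420, and the count after scaling is not given here. Without P0 replicate 2 the change of miR-144-5p was −1.32 in TPM and −0.29 after scaling. For miR-144-5p the authors' deposited table held −1.70 as log2 fold change, with an adjusted p of 0.172.

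**Figure D1:**
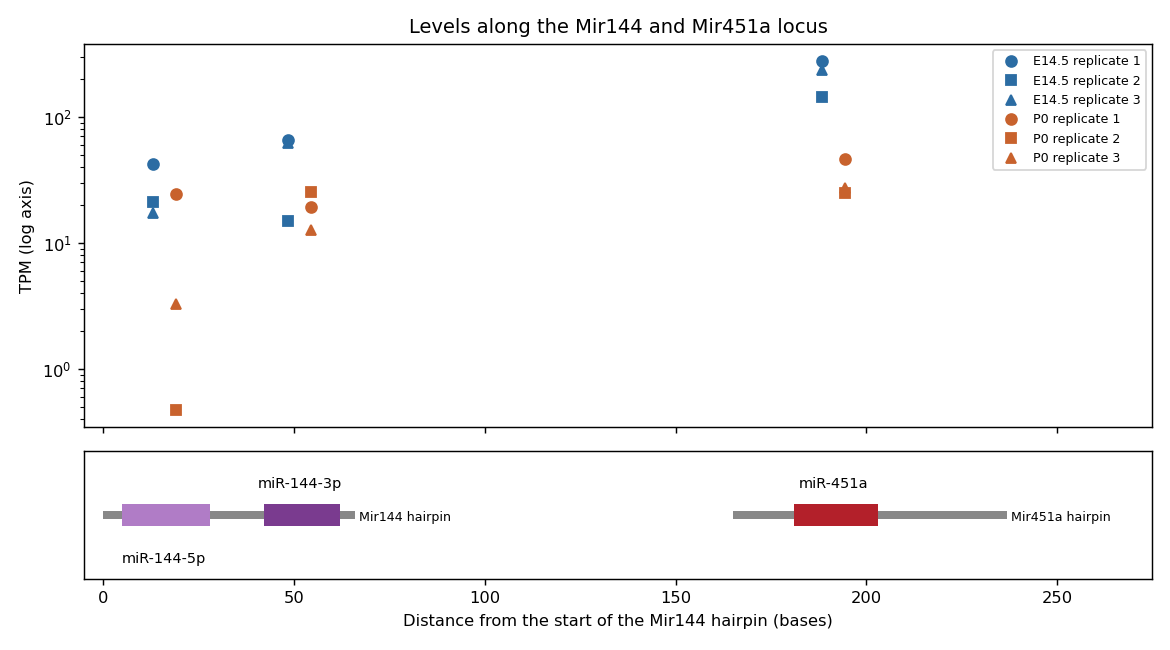
Level of the 3 products of the Mir144 and Mir451a locus, in TPM on a log axis, against the distance in bases from the start of the Mir144 hairpin. Blue points are the 3 E14.5 libraries and orange points the 3 P0 libraries, set slightly apart for legibility, and coloured blocks mark the mature sequences. For miR-451a every P0 library is below every E14.5 library, while for both arms of miR-144 the stages overlap.

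miR-486a-5p, from the other locus, pointed the opposite way. It had 33.7, 61.9 and 73.0 TPM in the 3 E14.5 libraries, against 37.4, 138 and 146 TPM in those of P0. P0 replicates 2 and 3 were above all E14.5 libraries and P0 replicate 1 was among them, so the stages overlapped in TPM. The means were 56.2 ± 20.3 TPM at E14.5 and 107 ± 60.5 TPM at P0 (n = 3 each, SD), from 89 to 3130 reads per library. The log2 fold change was 0.76 in TPM (SE 0.66, limma adjusted p = 0.363) and 2.04 after median-of-ratios scaling (SE 0.72, limma adjusted p = 0.0847), past the threshold on neither scale. Without P0 replicate 1 it was 1.39 in TPM (limma adjusted p = 0.0138) and, with median-of-ratios factors, 2.90 (limma adjusted p = 0.000815). In TPM 420 of all miRNAs in place of 229 were called without that library, and the count after scaling is not given here. The change of miR-486a-5p in TPM exceeded that of 92.7% of tested miRNAs.

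On the size-factor scale, miR-486a-5p had 289, 547 and 549 normalised reads at E14.5 and 550, 3460 and 3343 at P0. P0 replicate 1 differed from E14.5 replicate 3 by less than 1 normalised read, so the stages only just failed to overlap. The authors' deposited table called miR-486a-5p higher at P0, with a log2 fold change of 2.20, a standard error of 0.73 and an adjusted p of 0.0245. Of the 1034 miRNAs in the authors' deposited table, 5.13% had an adjusted p below 0.05 and were higher at P0. The other 3 members were not called there.

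**Figure D2:**
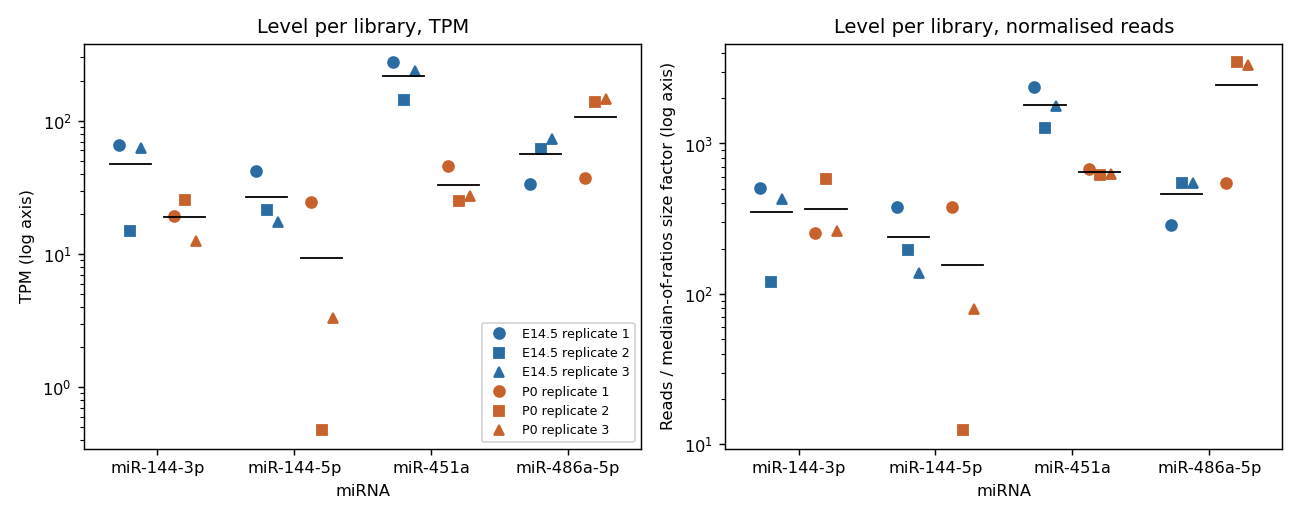
Level of each member in each library, in TPM (left) and in reads divided by the median-of-ratios size factor (right), both on log axes. Points are libraries (blue E14.5, orange P0, shapes give the replicate) and black lines are stage means over 3 libraries. miR-451a is lower in all P0 libraries in both panels, and P0 replicate 1 stands with the E14.5 libraries for miR-144-5p and miR-486a-5p.

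The values of miR-486a-5p lie close to those of its antisense neighbour in each library. miR-486b-5p, at 23142627 to 23142648 on the minus strand of chromosome 8, had 99, 1502 and 377 reads at E14.5 and 1312, 3126 and 3156 at P0. miR-486a-5p had 89, 1458 and 373 reads at E14.5 and 1300, 3075 and 3130 at P0. The excess of miR-486b-5p over miR-486a-5p was 11.2% of the latter in E14.5 replicate 1, the shallowest library, and between 0.831% and 3.02% in the other libraries. Whether the same reads were counted under both names was not tested. With both names summed, miR-486-5p changed by 0.74 on the log2 scale in TPM (limma adjusted p = 0.367). The normalised reads of miR-486b-5p reached 564 at E14.5 and were at least 555 at P0, so for this name the stages overlapped. Its log2 fold change after median-of-ratios scaling was 1.98 (limma adjusted p = 0.0852). The authors' deposited table called miR-486b-5p higher at P0, with a log2 fold change of 2.16 and an adjusted p of 0.0255.

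The partner arm miR-486a-3p, at 23142629 to 23142649 on the plus strand, was scarce. It had 0, 10 and 0 reads at E14.5 and 18, 63 and 97 reads at P0. The P0 libraries were all above the E14.5 libraries in TPM, with at most 0.446 TPM at E14.5 and at least 0.544 TPM at P0. A count of 0 allows up to 3 reads, which is 1.19 TPM of miR-486a-3p in E14.5 replicate 1 and 0.617 TPM in E14.5 replicate 3, so P0 replicate 1 is not separated from those libraries by depth. In limma the adjusted p was 0.0567 on TPM, against 0.0688 with median-of-ratios factors, and no fold change is given. Its adjusted p in the authors' deposited table was 0.0418. Both arms of the miR-486a hairpin thus had higher P0 means, without passing the threshold in limma.

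**Figure D3:**
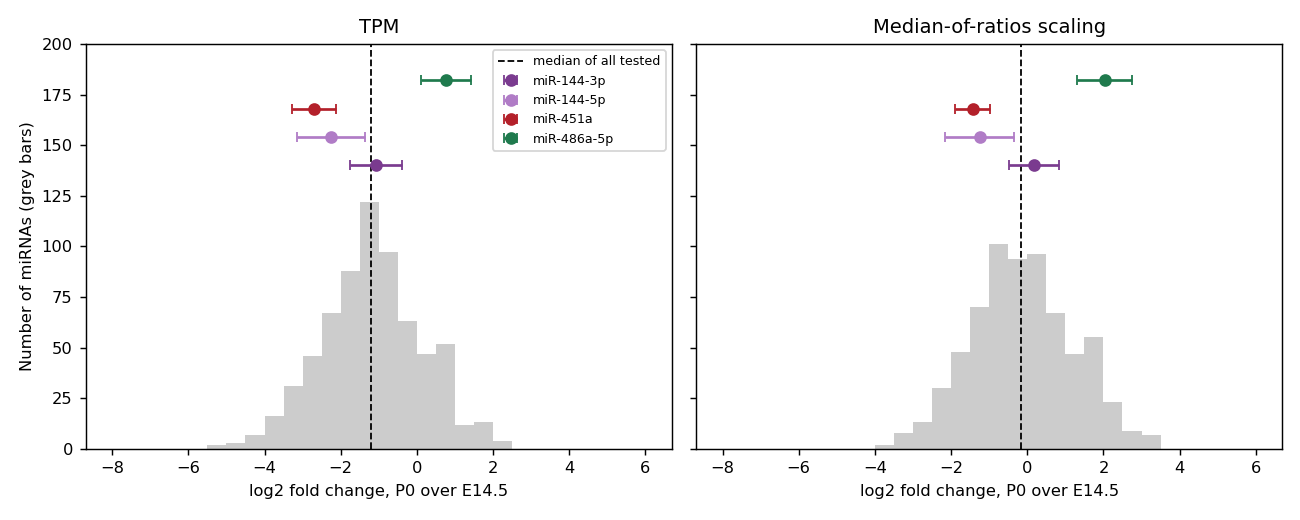
Log2 fold change of P0 over E14.5 for the 4 members (coloured points, bars are standard errors from limma) above a histogram of all 670 tested miRNAs (grey bars, number of miRNAs per bin), in TPM (left) and after median-of-ratios scaling (right). The height of a point has no meaning, and the dashed line is the median of all tested miRNAs. miR-451a lies left of the median and miR-486a-5p right of it in both panels, and miR-144-3p lies near it.

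Whether the partners moved together was examined with ratios within each library, which do not depend on how libraries are scaled. The ratio of miR-451a to miR-144-3p was 4.20, 9.57 and 3.77 at E14.5, in replicate order, against 2.40, 0.973 and 2.17 at P0. Each P0 library had less miR-451a per miR-144-3p than each E14.5 library. The mean log2 ratio was 2.41 ± 0.74 at E14.5 and 0.78 ± 0.71 at P0 (n = 3 each, SD), a difference of −1.63. The two-sided permutation test, which is exact, returned p = 0.1, or 0.2 after adjustment over the 4 ratios tested. With 3 libraries against 3 this test cannot go below 0.1, so no ratio could reach 0.05.

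The difference was set beside that of other neighbouring miRNAs. Over 1002 pairs from different hairpins on 1 strand with starts within 10 kb, the median absolute difference of the log2 ratio between stages was 1.31. The difference of miR-451a and miR-144-3p exceeded that of 60.1% of those pairs. The stages did not overlap in 34.9% of the pairs. The pair of miR-451a and miR-144-5p differed by 0.16, less than 93.7% of pairs, with stages that overlapped. That value is a difference of stage means. Within P0, miR-144-5p ran from 0.473 to 24.4 TPM while miR-451a ran from 24.8 to 46.0 TPM. The small mean difference therefore does not show that this pair moved together library by library. The 1002 pairs share libraries and many share a miRNA, so the percentages are descriptions.

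The ratio of the arms of miR-144 to each other varied within both stages. miR-144-5p per miR-144-3p was 0.644, 1.42 and 0.278 at E14.5, against 1.27, 0.0185 and 0.261 at P0. In E14.5 replicate 2 and P0 replicate 1 the 5p arm was the more abundant, and in the other 4 libraries the 3p arm was. The stages overlapped (difference of the mean log2 ratio −1.79, exact permutation p = 0.4, adjusted 0.4). Leaving out single libraries moved that difference from −3.19 without P0 replicate 1 to −0.14 without P0 replicate 2. Across 167 hairpins with both arms measured in all libraries, the median absolute difference was 1.12, and the stages did not overlap in 32.9% of them. The value for miR-144 exceeded that of 73.1% of these hairpins.

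The ratio of miR-486a-5p to miR-451a was 0.122, 0.431 and 0.310 at E14.5, against 0.813, 5.57 and 5.32 at P0. All P0 libraries were above all E14.5 libraries, although in P0 replicate 1 miR-451a was still the more abundant of the pair. The stages did not overlap in 33.5% of 134196 pairs of tested miRNAs on different chromosomes, and the difference for this pair exceeded that of 91.1% of them. The mean log2 ratio went from −1.98 ± 0.94 to 1.53 ± 1.59 (n = 3 each, SD), a difference of 3.51 (exact two-sided permutation p = 0.1, adjusted 0.2), or an 11.4-fold change of the ratio. Leaving out each library in turn kept it between 2.98 and 4.42. The ratio of miR-486a-5p to miR-144-3p was 0.513, 4.12 and 1.17 at E14.5, against 1.95, 5.42 and 11.6 at P0. Here the stages overlapped through E14.5 replicate 2 (difference 1.88, exact permutation p = 0.2, adjusted 0.267), and the difference exceeded that of 63.5% of the pairs on different chromosomes. Leaving out single libraries moved this difference from 1.18 without E14.5 replicate 1 to 2.68 without E14.5 replicate 2.

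**Figure D4:**
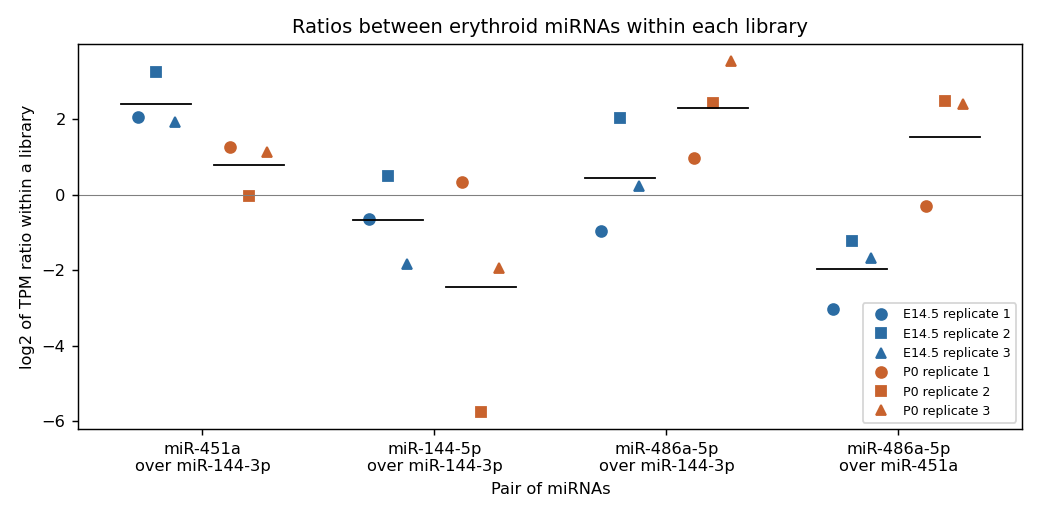
Log2 of the TPM ratio of 2 members within each library, for 4 pairs, with stage means over 3 libraries as black lines. The ratio of miR-486a-5p to miR-451a is below 0 in all E14.5 libraries and reaches 2.48 and 2.41 in P0 replicates 2 and 3, and that of miR-144-5p to miR-144-3p has its lowest value, −5.75, in P0 replicate 2.

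Together the members were a small share of each library, and their make-up differed between the stages. They summed to 417, 242 and 389 TPM at E14.5, in replicate order, against 127, 189.2 and 189.0 TPM at P0. All P0 sums were below all E14.5 sums. As a share of reads they made up 0.0412% (95% Wilson interval 0.0388 to 0.0437), 0.0240% (0.0234 to 0.0246) and 0.0382% (0.0365 to 0.0399) in the E14.5 libraries. In the P0 libraries the share was 0.0126% (0.0122 to 0.0130), 0.0186% (0.0181 to 0.0192) and 0.0188% (0.0182 to 0.0194). These intervals cover counting error only. In normalised reads the sums ran from 2136 to 3540 at E14.5 and from 1858 to 4671 at P0, so on that scale the stages overlapped.

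Within the sum, miR-451a supplied 66.0%, 59.4% and 60.6% of the TPM at E14.5, against 36.2%, 13.1% and 14.48% at P0. miR-486a-5p supplied 8.07%, 25.6% and 18.8% at E14.5 and 29.4%, 73.1% and 77.1% at P0. The leading member was therefore miR-451a in all E14.5 libraries and in P0 replicate 1, and miR-486a-5p in P0 replicates 2 and 3. At E14.5 the levels of the other 3 members overlapped, so their order below miR-451a was not resolved. At P0 the ranges of miR-451a and miR-486a-5p overlapped, and so did those of miR-144-3p and both miR-144-5p and miR-451a. In abundance miR-451a ranked between 162 and 209 of 1034 miRNAs in the E14.5 libraries and between 251 and 259 in the P0 libraries. miR-486a-5p ranked between 272 and 343 at E14.5, and at 267, 136 and 129 in P0 replicates 1, 2 and 3.

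Other miRNAs tied to red cells were called in both directions. Of 10 that are abundant in red cells but also made by most cells, 4 fell in TPM (miR-15b-5p, miR-106b-5p, miR-363-3p and miR-22-3p) and 6 were not called, a share near the 32.8% of all tested miRNAs called lower. The median log2 fold change of these 10 was −1.21, beside −1.20 for all tested miRNAs. After median-of-ratios scaling 1 was called higher and 1 lower, where 10.9% of all tested miRNAs were called in either direction. The median of the 10 was then 0.08 beside −0.17. The one called higher was miR-16-5p (log2 fold change 1.69, limma adjusted p = 0.0418) and the one called lower was miR-363-3p (−2.36, limma adjusted p = 0.0478). miR-210-3p, which is induced in low oxygen and during erythroid maturation, changed by 0.34 on the log2 scale in TPM (limma adjusted p = 0.659), against 1.63 with median-of-ratios factors (limma adjusted p = 0.0588).

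Among 5 miRNAs known to decline as red cells mature, 3 fell in TPM, against 32.8% of all tested miRNAs called lower. These were miR-221-3p and miR-222-3p, which act on the receptor Kit, and miR-155-5p. After median-of-ratios scaling 0 of the 5 were called in limma, against 10.9% of all tested miRNAs. At an unadjusted limma p below 0.05 were 2, miR-221-3p at −1.19 and miR-191-5p at 1.33. The share of all tested miRNAs at that unadjusted threshold is not given here. The median of the 5 was −1.77 in TPM and −0.49 after scaling. All of these miRNAs are also made by other cells of the kidney.

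Markers of other cell types moved beside the members. The 5 leukocyte markers, with miR-223-3p and miR-142a-3p as the defining ones, summed to between 1035 and 1717 TPM at E14.5 and between 517 and 793 TPM at P0. The defining markers did not go the same way in TPM: miR-223-3p had means of 137 ± 26.2 at E14.5 and 179 ± 60.4 at P0 (n = 3 each, SD), with overlapping stages, and miR-142a-3p had 696 ± 255 and 273 ± 6.40, with stages that did not overlap. Neither was called in TPM (limma adjusted p = 0.598 and 0.0695). In normalised reads the leukocyte markers ran from 9311 to 15071 at E14.5 and from 11792 to 13675 at P0, so on that scale the ranges overlapped. Of the 5, 1 was called lower in TPM (miR-146a-5p) and 1 higher after scaling (miR-223-3p). The 2 endothelial markers, both arms of miR-126a, summed to between 26608 and 44921 TPM at E14.5 and between 5634 and 8158 TPM at P0, and both were called lower in TPM, but only miR-126a-5p after scaling. Their normalised reads did not overlap either, with 213669 to 380632 at E14.5 and 118990 to 186010 at P0. All 5 epithelial markers of the miR-200 family were called lower in TPM, with sums of 4122 to 23183 TPM at E14.5 and 500.2 to 1542 TPM at P0, and after scaling 3 of the 5 were called lower. The normalised reads of the epithelial markers, 36716 to 199648 at E14.5 and 12750 to 22748 at P0, did not overlap. The 4 stromal markers summed to 21326 to 33937 TPM at E14.5 and 7443 to 14270 TPM at P0, 2 of them called lower in TPM. The normalised reads of the stromal markers overlapped between the stages, from 183918 to 282760 at E14.5 and from 183424 to 316567 at P0, and after scaling 0 of the 4 were called in limma, with 1 at an unadjusted p below 0.05. These counts of lower calls stand beside the 32.8% of all tested miRNAs called lower in TPM and the 10.9% called in either direction after scaling. Both shares are at the adjusted threshold. No marker in these 4 lists was at 0 in any library. The part of these cells in the values of the members was not tested.

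**Figure D5:**
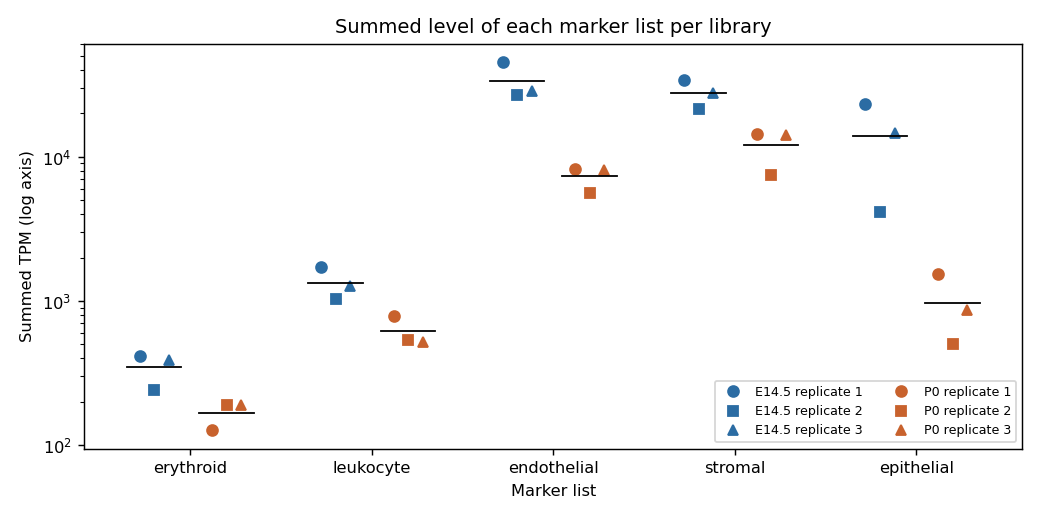
Summed TPM of the 4 erythroid members and of 4 lists of markers of other cell types in each library, on a log axis, with stage means over 3 libraries as black lines. In each list the P0 sums lie below the E14.5 sums, and the erythroid sums are the lowest of the 5 lists in every library.

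miR-486 is also made in striated muscle, so 5 muscle miRNAs, chosen after values were seen, are set beside it. miR-1a-3p, miR-133a-3p, miR-133b-3p, miR-206-3p and miR-499-5p summed to between 30.0 and 76.2 TPM at E14.5 and between 15.4 and 133 TPM at P0. The 133 TPM belong to P0 replicate 3 alone, in which miR-1a-3p held 109 TPM, whereas P0 replicates 1 and 2 held 24.5 and 15.4 TPM, below every E14.5 library. In normalised reads the muscle sums were 256, 583 and 572 at E14.5, against 359, 386 and 3053 at P0, so P0 replicates 1 and 2 lay within the E14.5 range. Of the 5, 4 passed the filter. In limma 0 of these 4 were called and 0 had an unadjusted p below 0.05 on either scale. For comparison, limma called 34.2% of all tested miRNAs in either direction with TPM and 10.9% with median-of-ratios factors, at the adjusted threshold. The share of all tested miRNAs at the unadjusted threshold is not given here. The part of muscle in the values of miR-486a-5p was not tested.

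The miRNAs whose levels followed a member most closely over the 6 libraries differed from member to member. Likeness was Pearson's r of log2(TPM + 1) with the 431 other miRNAs of at least 10 TPM, a description over 6 libraries that share the stage difference and differ in depth. miR-451a was most like miR-18a-5p (r 0.998), miR-19b-1-5p (0.992) and miR-675-5p (0.988). miR-144-5p was most like miR-30b-3p (0.986), miR-195a-5p (0.981) and miR-340-5p (0.963). miR-144-3p was most like miR-33-5p (0.880), miR-5100 (0.866) and miR-340-3p (0.859). miR-486a-5p was most like miR-486b-5p (0.999), then miR-1981-5p (0.996) and miR-382-5p (0.992).

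No member was among the 3 closest of another. In likeness to miR-144-3p, miR-451a ranked 57 (r 0.713) and miR-144-5p ranked 253 (0.392). Seen from miR-451a, miR-144-5p ranked 224 (0.798), miR-144-3p ranked 258 (0.713) and miR-486a-5p ranked 390 (−0.64). In likeness to miR-144-5p, miR-451a ranked 172 and miR-144-3p ranked 301. miR-486a-5p and miR-144-5p had an r of −0.91 with each other.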

How the data were processed

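Small RNA was sequenced from 6 litter pools after QIAseq miRNA library preparation, per the labels' protocols. The submitters' processing notes name featureCounts, DESeq2 1.26.0 and build mm10, which shares its coordinates with GRCm38. The aligner and the use of molecular tags are not given in the sources used here. The authors deposited 1 table of 1104 rows with a TPM value per library, and their own baseMean (a normalised signal), log2 fold change with its standard error, test statistic (a score), p-value and adjusted p-value, per the file headers. The authors' log2 values rise where P0 exceeds E14.5 in TPM, which sets the direction of their comparison. A single miRNA can still differ in sign, as miR-144-3p did, with 0.77 there and −1.07 in TPM.

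The deposited TPM, times end minus start, were whole multiples of a step per library in 100% of values (tolerance 0.1 reads). These multiples were taken as reads. Divided by size factors from 589 rows and averaged, they equalled the deposited baseMean within a relative 4.77e-15. The row with the highest total stood for a name with several positions. In R 4.3.3, limma 3.58.1 (mean-variance trend) was fitted to all 6 samples with stage as its single term. It used log2(TPM + 1), which understates changes of low miRNAs. The fit was tested on simulated data with the same spread setting for all miRNAs. That does not check it under the spread of these libraries. Ratios were tested with exact permutations (scipy 1.17.1). Loops were predicted with RNAfold 2.7.2. Members and lists were chosen with earlier results of these data known, the muscle list after the values of this work were seen. The named miRNAs are the members, the listed miRNAs a result turns on, and the 3 most alike each member by Pearson's r. Deviations of same-numbered samples correlated at 0.19, 0.18 and 0.04, and those of differently numbered samples at −0.18 to 0.08. Same-numbered samples are not known to be pairs, so the numbers were not taken as pairs. Library totals were 2649506 to 34934526 reads.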

Additional observations from a re-analysis of the deposited data

How the results depend on the processing

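The scaling of libraries changed the call of miR-451a and the sign of miR-144-3p. With median-of-ratios scaling, upper-quartile scaling, limma-voom on recovered reads with median-of-ratios factors, and a replicate block combined with median-of-ratios factors, miR-144-3p turned to 0.17, 0.18, 0.40 and 0.17, and miR-451a missed the threshold at −1.43, −1.42, −1.41 and −1.43 (limma adjusted p from 0.0665 to 0.0898). The same 4 settings called 73, 58, 28 and 77 miRNAs in place of 229. With the replicate block in TPM, miR-144-5p passed the threshold (−2.26, limma adjusted p = 0.0267) and no other member changed its call; same-numbered samples are not known to be pairs.

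Leaving out each library in turn, miR-451a kept its call in TPM, from −2.98 to −2.51, and ranged from −1.65 to −1.21 after median-of-ratios scaling. miR-144-5p ranged from −3.37 to −1.32 in TPM and from −2.24 to −0.29 after scaling. miR-486a-5p ranged from 0.43 to 1.39 and from 1.59 to 2.90. miR-144-3p after scaling ranged from −0.45 to 0.54, negative without E14.5 replicate 2 or P0 replicate 2 (−0.20). The count of calls ranged from 72 without E14.5 replicate 3 to 420 without P0 replicate 1; it was 111 without E14.5 replicate 1, 115 without P0 replicate 2 and 134 without P0 replicate 3. The 4 ratios kept their sign under a pseudocount of 1, the block and each omitted library. No filter, a 10 TPM filter, a pseudocount of 0.1, summed rows, omission of the most abundant miRNA and limma-voom with library totals (chosen after seeing the data) changed no call or direction of a member. Causes were not tested. Depth limits miR-486a-3p in E14.5 replicates 1 and 3.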
